A study of Mus musculus with 14 samples.

Results

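The cells described here are basal keratinocytes of mouse back skin that carry many immediate early gene transcripts at once. They were chosen by measured values, in single-cell (10x) libraries of sorted skin epithelium, namely by counts of unique molecular identifiers (UMIs), each standing for 1 captured RNA molecule. A barcode entered with at least 1000 UMIs, at least 500 genes and at most 10% mitochondrial UMIs. It then needed a UMI of Ly6a, which encodes the epidermal surface protein Sca1, and UMIs of at least 4 of the 6 rule genes Atf3, Fosb, Egr1, Socs3, Btg2 and Cyr61. It also had to hold under 0.2% of UMIs from the suprabasal keratins Krt1 and Krt10, 0 UMIs of Cd34, Krt79, Top2a and Mki67, and UMIs of fewer than 2 of Gpnmb, Mmp3, Thy1 and Serpinb7. This left 152 of 8396 cells, 7 of 4351 in the aged library and 145 of 4045 in the young library. They are called IEG-high basal cells below. The 985 aged and 958 young cells that met every criterion except the one on rule genes are called other basal cells. Both sets together, 992 aged and 1103 young cells, are called basal cells.

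The study set aged (24-month-old) against young (2-month-old) female mice. Back skin was digested with trypsin and sorted by flow cytometry, and no group carried a transgene or a drug treatment in the labels, which name the strain as both C57B8 and C57B6. The 10x libraries, 1 per age, held lineage-negative, integrin α6-positive cells. Epidermal stem cells (EpdSC; lineage-negative, integrin α6-high, CD34-negative, Sca1-positive) and hair follicle stem cells (HFSC; CD34-positive, Sca1-negative) were each profiled as 2 aged and 2 young RNA-seq libraries and 1 aged and 1 young ATAC-seq library, which counts transposase insertions in open chromatin.

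Immediate early genes are transcribed within minutes of a signal, without new protein synthesis, by transcription factors that are already present in the cell. Many encode transcription factors themselves, such as the Fos and Jun subunits of AP-1, and others encode phosphatases and RNA-binding proteins that end the response. In keratinocytes growth factors, wounding and mechanical or chemical stress induce them, and enzymatic dissociation of tissue is known to do so too. All cells here had passed through trypsin and sorting, and the part of these steps in the values below was not tested.

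The kept cells had a median of 2302 UMIs in the aged and 3918 UMIs in the young library, and the libraries shared 33 kept barcodes. The IEG-high basal cells were deeper than the other basal cells, with medians of 2901 against 2310 UMIs in the aged and 4615 against 3950 UMIs in the young library. Their median mitochondrial share was 4.47% against 4.69% in the aged and 3.47% against 3.82% in the young library. No doublet caller was run. Leaving out barcodes above 4 times the median depth removed none of the 152 cells. With 1 library per age, and with classes made from the same counts, differences between 10x classes and ages are descriptions without a test, and their intervals cover counting error only.

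The promoters of the rule genes show which short motifs of inducible transcription lie close to their starts. RefSeq (GRCm38.p6) gave a 300-base promoter, from 250 bases before to 50 bases after the start, for 5 of the 6 genes. Egr1 had no entry and was not searched. Shown here, 5′ to 3′ on the gene's strand, are Atf3 (chr1:191183284-191183583, minus strand), Btg2 (chr1:134079106-134079405, minus strand) and Socs3 (chr11:117969317-117969616, minus strand), since each holds a different match. Capitals mark TGACG, the cAMP response element (CRE) half-site, on either strand, the full CRE TGACGTCA, and TTCNNNGAA, the STAT-type motif.
Atf3: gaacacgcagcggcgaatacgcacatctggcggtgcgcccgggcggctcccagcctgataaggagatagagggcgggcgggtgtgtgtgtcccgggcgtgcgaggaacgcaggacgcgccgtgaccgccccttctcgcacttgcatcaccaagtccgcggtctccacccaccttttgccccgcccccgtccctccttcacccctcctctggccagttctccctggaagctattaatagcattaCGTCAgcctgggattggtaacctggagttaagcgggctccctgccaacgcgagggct
Btg2: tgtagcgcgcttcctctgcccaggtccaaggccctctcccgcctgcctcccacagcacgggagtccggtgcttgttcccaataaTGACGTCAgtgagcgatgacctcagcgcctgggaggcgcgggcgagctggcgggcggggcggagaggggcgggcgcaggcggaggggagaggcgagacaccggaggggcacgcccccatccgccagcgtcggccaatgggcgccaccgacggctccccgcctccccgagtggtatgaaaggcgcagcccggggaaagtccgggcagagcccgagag
Socs3: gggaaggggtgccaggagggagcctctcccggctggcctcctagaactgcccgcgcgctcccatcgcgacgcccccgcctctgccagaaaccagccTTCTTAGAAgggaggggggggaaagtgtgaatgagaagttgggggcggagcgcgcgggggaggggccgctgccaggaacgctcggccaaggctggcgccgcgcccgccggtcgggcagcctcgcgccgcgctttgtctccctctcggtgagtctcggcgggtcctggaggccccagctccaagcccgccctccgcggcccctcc
The half-site TGACG, searched on both strands, lay in the promoters of 4 of the 5 rule genes (Atf3, Fosb, Btg2 and Cyr61) and in 20.8% of the 32851 promoters in the table. The full TGACGTCA, which contains the half-site on each strand, lay in Btg2 alone and in 1.79% of all promoters. TTCNNNGAA lay in Socs3 alone and in 8.30% of all promoters. The AP-1 motif TGANTCA (7.81% of all promoters) and the CArG box of serum response factor (1.63%) lay in none of the 5 windows. Of 10 genes outside the rule that were higher in the IEG-high cells and had an entry, 6 held TGACG, and Dusp1 and Ppp1r15a held TGACGTCA. Among these genes Zfp36 alone held a CArG box and TTCNNNGAA, and none held TGANTCA.

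Fewer basal cells were found at each higher number of rule genes, and the threshold of 4 is a cut along that count. With 0, 1, 2, 3 and 4 rule genes there were 672, 219, 70, 24 and 7 aged basal cells, and 366, 306, 178, 108 and 91 young basal cells. A further 44 young cells had 5 rule genes and 10 had all 6, while no aged cell had more than 4. Just inside the threshold, at 4 rule genes, young cells held on average 9.43 rule-gene UMIs, against 5.69 just outside it, at 3. In the aged library these averages were 4.86 and 4.33 UMIs.

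**Figure D1:**
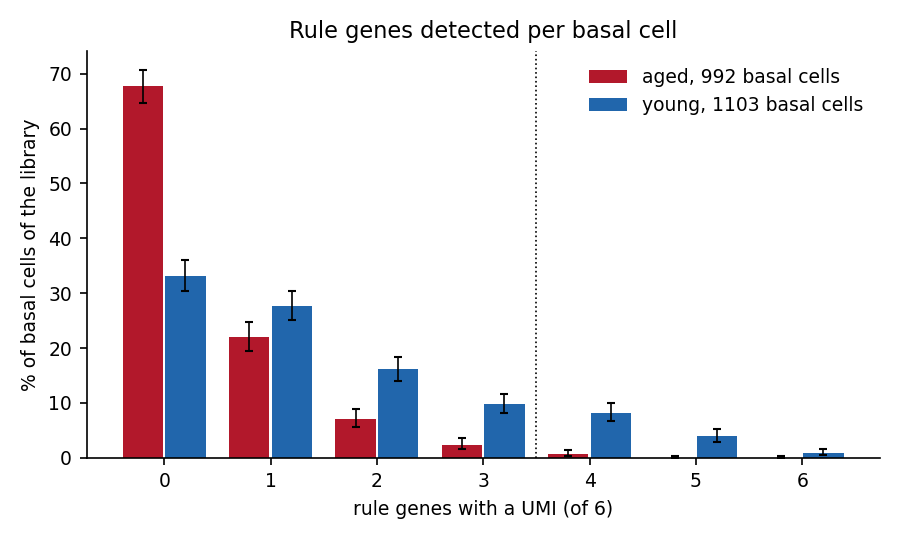
Share of basal cells by the number of rule genes with at least 1 UMI, in the aged and young 10x libraries (bars; error bars are 95% Clopper-Pearson intervals, and the dotted line is the threshold of 4). The aged library has 67.7% of cells at 0 rule genes and the young library 33.2%.

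Many combinations of rule genes occurred. Among the 145 young cells the set Atf3, Fosb, Egr1 and Btg2 was found in 20, the set Fosb, Egr1, Btg2 and Cyr61 in 16, and all 6 genes in 10. Egr1 was detected in 92.4% and Fosb in 90.3% of the young IEG-high cells, Btg2 in 82.8%, Atf3 in 64.1%, Cyr61 in 61.4% and Socs3 in 53.1%. Of the 7 aged cells 3 held Fosb, Egr1, Btg2 and Cyr61, and 2 held Fosb, Egr1, Socs3 and Cyr61. All 7 had Cyr61 and Egr1, and 1 had Atf3.

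The rule genes span transcription factors, a cytokine brake, an antiproliferative factor and a matrix protein. Their levels are in CPM, a gene's count among 1000000 UMIs of a class's summed cells; they were set by the rule and are given as its description. Atf3, a stress-induced repressor of the ATF/CREB family, had 259 CPM in young IEG-high cells (95% Poisson interval 222 to 299) and 32.3 CPM in other basal cells. Fosb, an AP-1 subunit, had 423 against 95.7 CPM. Egr1, a zinc-finger transcription factor, had 527 against 121 CPM. Those 3 transcription factors also appeared outside cells, at 107, 125 and 245 CPM in young barcodes of 10 to 100 UMIs, which hold mostly free RNA. Socs3, an inhibitor of JAK-STAT signalling, had 177 against 34.3 CPM, Btg2, an antiproliferative cofactor of mRNA deadenylation, 444 against 61.9 CPM, and Cyr61, a secreted matrix protein and YAP target, 454 against 74.1 CPM. Their levels in the small barcodes were 46.1, 90.5 and 81.9 CPM, under those of the IEG-high cells. For all 6 rule genes the small barcodes stood above the other basal cells of the young library, with overlapping intervals for Fosb, Socs3 and Cyr61. The rule had chosen those cells for fewer of these genes. In all young basal cells, chosen without them, Fosb (146 CPM), Socs3 (56.2), Btg2 (120) and Cyr61 (132) stood above the small barcodes. Atf3 (66.9 CPM) and Egr1 (183) stood below. No class of sorted cells lacks these genes, so the small barcodes are the background given here.

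In the aged library the same levels rest on 1 to 10 UMIs per rule gene. Cyr61 had 412 CPM (198 to 759) in the 7 IEG-high cells and 30.5 CPM in other basal cells. Egr1 had 371 CPM (170 to 705) and 90.7 CPM, and Socs3 206 CPM (67.0 to 481) and 13.6 CPM. Atf3 had a single UMI in the 7 cells.

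**Figure D2:**
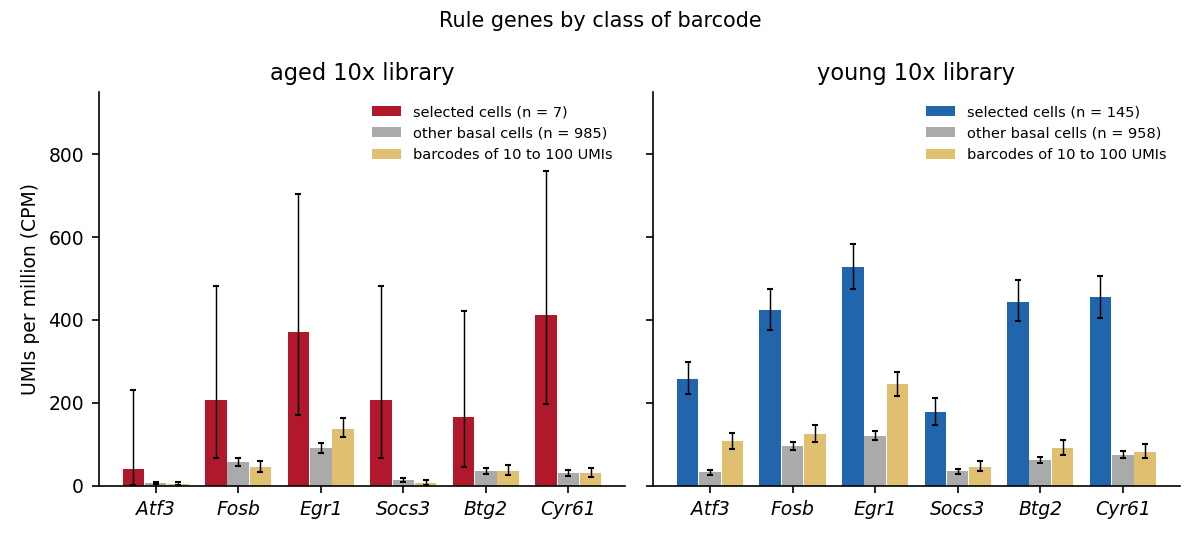
Levels (CPM) of the 6 rule genes in the aged (left) and young (right) 10x library, for the selected IEG-high cells, other basal cells and barcodes of 10 to 100 UMIs (error bars are 95% Poisson intervals). In the young library each gene's bar in the IEG-high cells stands above both others, and in the aged library the intervals are wide because 7 cells are summed.

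Each rule gene had a higher level in the young basal cells that held more of the other 5. The genes are those of the rule, picked with these data known, so this is a description. For each gene, basal cells were split by how many of the other 5 they held, which leaves the gene itself out of the split. Young cells with at least 3 of the other 5 had 166 CPM of Atf3 (142 to 192), against 35.9 CPM (29.9 to 42.8) in cells with fewer. The corresponding levels were 369 and 98.3 CPM for Fosb, 466 and 124 CPM for Egr1, 123 and 37.3 CPM for Socs3, 326 and 66.3 CPM for Btg2, and 324 and 79.8 CPM for Cyr61. The deeper cells were on the same side of the split, with medians of 4494.5 to 4604 UMIs against 3904 to 3946 UMIs. CPM divides by that depth, whereas the count of detected genes behind the split is not corrected for it. In the aged library each gene was also higher on that side, from 1 UMI for Atf3 to 10 UMIs for Cyr61. The aged intervals overlapped for Atf3, Fosb and Btg2.

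Beyond the rule, the young IEG-high cells were marked by other immediate early genes and by few others. At 2-fold or more, with at least 10 UMIs and 50 CPM in the higher class, 21 of 2500 genes were higher than in other basal cells (0.84%), and 5 were lower (0.2%). The 21 included the 6 rule genes. The other 15 were Nr4a1, Ier2, Fos, Zfp36, Jun, Dusp1, Nfkbiz, Stfa3, Junb, Ppp1r15a, Dnajb1, Gm26532, Jund, H2-M2 and Spry1. Since the same cells' counts made the classes, these shares describe the cells and support nothing further. The minimums applied to the higher class, so a gene could enter these and the list counts below through the IEG-high cells alone.

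The AP-1 subunits stood out by level. Fos had 2407 CPM in young IEG-high cells, against 588 CPM in other basal cells, a log2 ratio of 2.03 (95% interval 1.94 to 2.13), and had a UMI in 97.2% of the IEG-high cells. Jun had 1228 against 313 CPM (1.97, 1.84 to 2.10) and Junb 1363 against 468 CPM (1.54, 1.43 to 1.66). Jund, which is less inducible than its relatives, had 876 against 394 CPM (1.15, 1.01 to 1.29). All 6 AP-1 subunits with enough UMIs (of 8 listed) were higher and 4 of them passed 2-fold. Their median log2 ratio was 1.35, and the median of all 2500 genes was -0.03.

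Feedback genes, which end the response, were higher as well. Dusp1, a phosphatase that inactivates MAP kinases, had 1116 against 309 CPM in the young library (log2 1.85, 1.72 to 1.98). Zfp36, an RNA-binding protein that destabilises AU-rich mRNAs, had 569 against 140 CPM (2.02, 1.83 to 2.21). All 10 measurable feedback genes of 22 listed were higher, 4 of them at 2-fold, with a median of 0.80. Ier2, an immediate early nuclear protein, had 931 against 206 CPM (2.18, 2.03 to 2.33), and Nr4a1, an orphan nuclear receptor, 58.6 against 10.6 CPM (2.47, 1.81 to 3.13). Nfkbiz, an inducible NF-κB cofactor, had 106 against 31.7 CPM, and Ppp1r15a, which dephosphorylates eIF2α, 62.9 against 21.7 CPM. The heat shock cochaperone Dnajb1 had 297 against 120 CPM, and Spry1, an inhibitor of receptor tyrosine kinase signalling, 52.9 CPM in the IEG-high cells (log2 1.08). Of 7 measurable genes among 26 other immediate early genes 5 were higher, with a median of 0.39.

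A few cells carried the values of 2 of these genes. Stfa3, a stefin protease inhibitor, had 72.9 against 24.5 CPM, although 8.28% of young IEG-high and 5.74% of other basal cells held a UMI of it. H2-M2, a non-classical MHC class I gene, had 62.9 against 28.9 CPM, with a UMI in 9.66% against 5.53% of cells. With every cell thinned to 2000 UMIs their log2 ratios were -0.066 and -0.19. Thinning also took Nr4a1 to 0.63, Ppp1r15a to 0.71 and Jund to 0.81, short of 2-fold. Across 10 alternatives, that thinning among them, Fos lay between 1.93 and 3.11, Jun between 1.79 and 2.90, and Jund between 0.81 and 1.53.

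**Figure D3:**
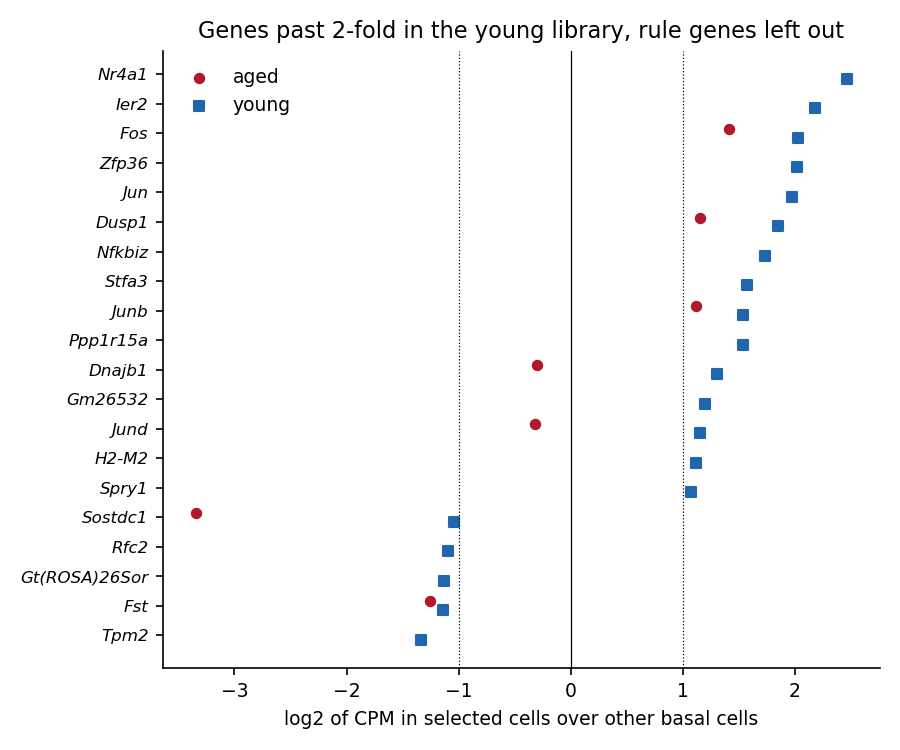
Log2 ratio of CPM in the selected IEG-high cells over other basal cells for the 20 genes past 2-fold in the young library, rule genes left out, with aged values (circles) shown where the count minimum was met and young values (squares) for all. Fos, Dusp1 and Junb pass the dotted 2-fold line in both libraries, and Dnajb1 and Jund do so in the young library and lie at -0.30 and -0.32 in the aged one.

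Fos, Jun, Junb and Dusp1 were higher at each step in the number of rule genes in young basal cells, also below the threshold. At 0, 3 and 6 rule genes Fos had 139, 1645 and 3534 CPM in young basal cells. Jun had 95.7, 848 and 1634 CPM, and Ier2 had 85.4, 532 and 1458 CPM. Zfp36 had 42.7 CPM at 0 and 578 CPM at 4 rule genes, with 554 and 552 CPM at 5 and 6, and Nr4a1 had 73.0 CPM at 5 and 44.2 CPM at 6. The keratin Krt5 stayed between 5894 and 6780 CPM and Ly6a between 578 and 817 CPM. The constitutive chaperone Hspa8 lay between 934 and 1171 CPM. In the aged library Fos had 214, 530, 899 and 1091 CPM at 0, 1, 2 and 3 rule genes, so the aged cells short of the threshold showed a gradient too.

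**Figure D4:**
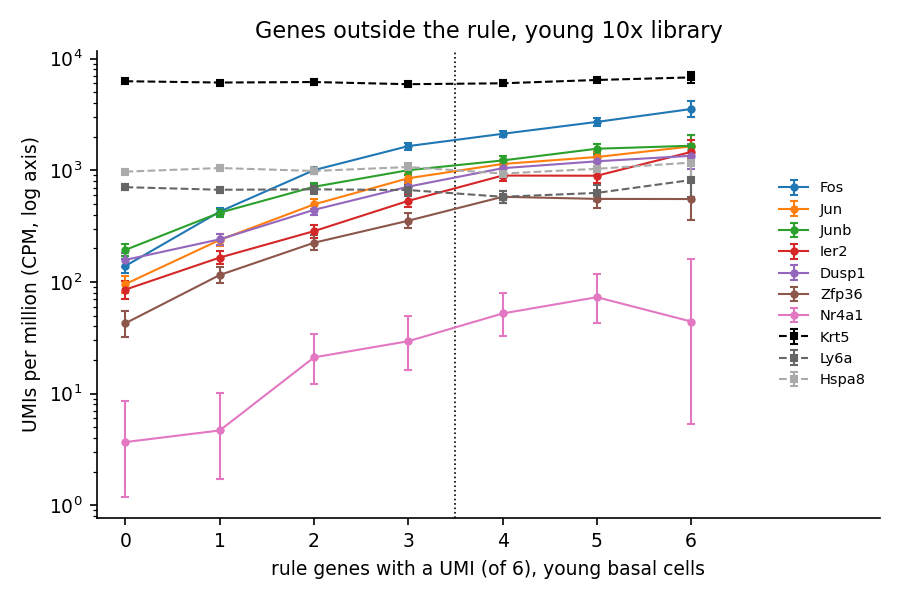
Levels (CPM, log axis) of 7 genes outside the rule (circles) and of Krt5, Ly6a and Hspa8 (squares) by the number of rule genes in young basal cells, with 95% Poisson intervals; the dotted line is the threshold of 4. Fos reaches 3534 CPM at 6 rule genes, against 139 CPM at 0, while Krt5, Ly6a and Hspa8 stay level.

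The basal keratins Krt5 and Krt14 had like levels in both sets of young cells. Krt5, a basal keratin, had 6197 CPM in young IEG-high cells and 6145 CPM in other basal cells, and its partner Krt14 had 13596 and 13794 CPM. Itga6, the integrin of the sort, had 331 and 304 CPM, and Trp63, the master regulator of stratified epithelium, 537 and 557 CPM. Over 15 basal markers the median log2 ratio was -0.02, with 7 higher, none past 2-fold, and 1, Sostdc1, lower at 2-fold. In the aged library 2 of 12 were higher and 2 were lower at 2-fold, Sostdc1 from 1 UMI and Col17a1 from 7 UMIs. Of 11 measurable suprabasal markers 4 were higher and none passed 2-fold (median -0.13). The heat shock list, which does not include Dnajb1 (log2 1.31), gave 2 of 10 higher and none past 2-fold (median -0.03). The p53 targets gave 1 of 3 higher (median -0.06). Of 5 measurable cytokine and NF-κB targets 2 were higher (median -0.08), and of 10 MHC and interferon genes 1 (median -0.09).

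Most markers of other lineages were at or near 0. In the young IEG-high cells summed markers came to 4.29 CPM for T cells, 2.86 CPM for pericytes and smooth muscle, 2.86 CPM for melanocytes, 14.3 CPM for endothelium and 0 CPM for Merkel cells. Ptprc, Col1a1, Cdh5 and Pmel had 0 UMIs in both libraries' IEG-high cells. The fibroblast list summed to 114 against 97.5 CPM, nearly all of it Sparc (113 against 91.6 CPM), and the Langerhans and myeloid list to 61.4 against 68.9 CPM. Lists of the hair follicle summed lower. The upper follicle had 644 against 940 CPM (0 of 5 higher, median log2 -0.55), with Krt17 at 226 against 363 CPM. The bulge had 631 against 1085 CPM (0 of 3 higher, median -0.69). Most of that difference was Sostdc1, at 327 against 672 CPM, which is also on the basal list. The wound keratinocyte list summed to 304 against 448 CPM (0 of 2 higher).

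The number of genes lower in the young IEG-high cells was 5 as counted here, 35 with 5 or more rule genes and 207 after thinning every cell to 2000 UMIs, where 37 were higher. Sostdc1, a secreted BMP and WNT antagonist that is also a bulge marker, had 327 CPM, against 672 CPM in other basal cells (log2 -1.04, -1.24 to -0.84). Fst, the activin antagonist follistatin, had 52.9 against 116 CPM (-1.14, -1.66 to -0.65). Tpm2, Rfc2 and the Gt(ROSA)26Sor transcript had 24.3 to 27.1 CPM, against 51.9 to 68.4 CPM, from 17 to 19 UMIs each in the IEG-high cells. Sostdc1 and Fst shared a direction across all 10 alternatives, with Sostdc1 past 2-fold in 6 of them and Fst in 8.

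The 7 aged cells can be shown almost one by one. They held 2154, 2239, 2783, 2901, 3789, 4333 and 6045 UMIs, 24244 in all, and each had exactly 4 rule genes, with 4 to 7 rule-gene UMIs. Every one of them had Fos, with 1 to 5 UMIs, and Junb, with 2 to 4 UMIs. Fos had 990 CPM in them, against 371 CPM in aged other basal cells (log2 1.42, 0.77 to 2.00), Junb 866 against 398 CPM (1.12, 0.42 to 1.74) and Dusp1 495 against 222 CPM (1.16, 0.19 to 1.97). Jun was not higher, at 206 against 200 CPM from 5 UMIs (0.04, -1.59 to 1.27).

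Within the aged library 16 of 1232 genes were 2-fold higher (1.3%) and 199 lower (16.2%), and the median log2 ratio was -0.41. The minimum of 10 UMIs applied to the higher class, and 10 UMIs in the 7 cells are 412 CPM, as for Cyr61. A gene higher in them thus needed at least 412 CPM, and a lower one 50 CPM in other basal cells. Of the 6 rule genes only Cyr61 met the minimum, and Socs3 (log2 3.93 from 5 UMIs) did not. The 2 sides, the median and the counts over both libraries below are therefore not balanced. The 7 cells hold 24244 UMIs, against 2359722 UMIs in the aged other basal cells, and the part of this depth in the 199 was not tested. Required in both libraries, 4 of 1188 genes were higher (0.337%), namely Cyr61, Fos, Dusp1 and Junb. The 2 lower ones (0.168%) were Fst and Sostdc1, each with 1 UMI in the aged cells. Those single UMIs leave aged log2 ratios of -1.25 (-6.56 to 1.24) for Fst and -3.35 (-8.65 to -0.87) for Sostdc1.

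IEG-high cells were rarer among aged than among young basal cells. They made up 0.706% of aged basal cells (7 of 992, 95% Clopper-Pearson interval 0.284 to 1.45%) and 13.1% of young basal cells (145 of 1103, 11.2 to 15.3%). Aged cells were shallower, so every cell was also thinned to 2000 UMIs, which left out 1607 aged and 311 young kept cells. The shares were then 0.147% (1 of 681, 0.00372 to 0.815%) in aged and 4.26% (42 of 985, 3.09 to 5.72%) in young basal cells. Between 2000 and 3000 UMIs, without thinning, they were 0.795% (4 of 503) and 5.63% (8 of 142). Between 3000 and 4000 UMIs they were 0.730% (1 of 137) and 9.89% (36 of 364). Between 4000 and 6000 UMIs they were 3.13% (1 of 32, interval up to 16.2%) and 15.9% (77 of 483). From 6000 UMIs up they were 33.3% (1 of 3) and 30.0% (24 of 80), and between 1000 and 2000 UMIs no cell of either library qualified. With 1 library per age, age cannot be told apart from the handling of each library, and the free RNA differed likewise, with Atf3 at 2.89 CPM in aged and 107 CPM in young barcodes of 10 to 100 UMIs.

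Cells with 4 or more rule genes were not found in the basal class alone. In the young library they made up 22.0% (41 of 186) of cells with at least 2 of Gpnmb, Mmp3, Thy1 and Serpinb7. The share was 11.4% of cycling cells (Top2a or Mki67), 7.50% of Krt79-positive cells of the upper follicle, 6.01% of suprabasal cells and 1.86% (4 of 215) of Cd34-positive, Ly6a-negative bulge cells. Thinned to 2000 UMIs these shares were 4.32%, 2.13%, 2.48%, 0.637% and 1.94%, beside 3.65% for young basal cells classed before thinning. Young cells without a Ly6a UMI that met the other basal criteria had a share of 6.42% (53 of 826), and 2.75% (19 of 690) when thinned. Of aged cells of that kind 1 of 1382 had at least 4 rule genes. In the aged library the shares were at most 0.965%, in cycling cells, which were also the deepest (median 3984 UMIs), and none of 71 Cd34-positive or 435 Krt79-positive cells had 4 rule genes, with upper interval bounds of 5.06% and 0.844%. Thinned, 0 of 273 aged cycling cells had 4 rule genes, and the shares were at most 0.456%, in suprabasal cells (3 of 658).

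The rule genes were also compared between ages in all basal cells, which were chosen without them. The genes were picked with these data known, for cells found mostly in the young library. Their lower aged levels are therefore a description and give no separate support. Of 2511 genes with at least 20 UMIs over both libraries and 50 CPM in the higher one, 21 were 2-fold higher in aged basal cells (0.836%) and 27 lower (1.08%). All 6 rule genes were lower in aged cells and 5 of them passed 2-fold, with a median log2 ratio of -1.80 (median of all genes -0.02). Atf3, Socs3, Btg2 and Cyr61 met the 50 CPM minimum through the young library alone. Atf3 had 6.29 CPM in aged and 66.9 CPM in young basal cells (log2 -3.41), Cyr61 34.4 and 132 CPM (-1.94), and Socs3 15.5 and 56.2 CPM (-1.86). Btg2 had 36.1 and 120 CPM (-1.74), Fosb 57.5 and 146 CPM (-1.34), and Egr1 93.5 and 183 CPM (-0.97). The barcodes of 10 to 100 UMIs were lower in the aged library in all 6 genes too. Atf3 had 2.89 CPM in aged and 107 CPM in young small barcodes and Egr1 138 and 245 CPM, so that the young basal cells lay below them for both genes and the aged ones for Egr1. The part of this free RNA in the difference was not tested. Under 6 alternatives, thinning among them, Atf3 lay between -3.83 and -3.27 and 5 genes stayed past 2-fold.

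Other genes of the response went both ways with age. Fos had 377 CPM in aged and 866 CPM in young basal cells (log2 -1.20), Jun 201 and 453 CPM (-1.18), Zfp36 82.6 and 206 CPM (-1.32), Dusp1 225 and 432 CPM (-0.94), Junb 402 and 605 CPM (-0.59), and Jund 411 and 468 CPM (-0.19). Of 6 AP-1 subunits all were lower and 2 passed 2-fold, with a median of -0.39. The immediate early genes Id3 (146 and 136 CPM) and Cebpb (102 and 80.0 CPM) were higher in aged cells, as 2 of 6 on their list, neither past 2-fold. That list had 1 gene lower at 2-fold and a median of -0.33. Of 7 feedback genes 3 were higher (Btg1, Zfp36l1 and Zfp36l2) and 1, Zfp36, was lower at 2-fold, with a median of -0.39. Between aged and young IEG-high cells themselves 497 of 2430 genes were 2-fold higher (20.5%) and 216 lower (8.89%). In the other basal cells, which hold far more UMIs, these shares were 0.982% and 0.707% of 2545 genes. The ratios between aged and young IEG-high cells were ranked with predicted, mitochondrial and rule genes left out. The highest, for Btbd3, Tpm2, Ppp3cb, Thy1, Ext2 and Nudt8, rest on 4 to 6 aged UMIs each. The lowest, for Ndufb4, Sostdc1 and Arhgdib, rest on 1 each.

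Bulk RNA-seq of EpdSC, the sorted population nearest to these cells, gave the opposite order. It was tested with edgeR's quasi-likelihood test over 21464 genes, in which 12 genes were higher (0.0559%) and 6 lower (0.028%) in aged EpdSC at a Benjamini-Hochberg adjusted p under 0.05. In bulk, more transcript per cell and more cells carrying it cannot be told apart. The labels do not tie replicates to separate animals, so these p-values measure the spread between libraries, which may be technical. Libraries held 31271835 to 34181623 counts in aged and 29923009 to 35905505 counts in young EpdSC.

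Each of the 6 rule genes was higher on average in aged EpdSC, and none was called by DESeq2 or by edgeR with a filter. Without a filter edgeR called Cyr61 (adjusted p = 0.0161). Without adjustment 3 of them (Btg2, Socs3 and Cyr61) had an edgeR p under 0.05, beside 2.75% of all genes on the higher and 1.71% on the lower side. Cyr61 had 502 and 411 CPM in the aged libraries, against 316 and 252 CPM in the young ones, a log2 difference of 0.68 (SE 0.231, edgeR adjusted p = 0.921). Atf3 had 738 and 744 CPM in aged and 533 and 436 CPM in young EpdSC (0.61, SE 0.419). Fosb had 1912 and 2101 CPM against 1496 and 1204 CPM (0.57, SE 0.350), and Egr1 1040 and 935 CPM against 745 and 599 CPM (0.56, SE 0.295). Socs3 had 240 and 218 CPM against 204 and 153 CPM (0.36, SE 0.163), and Btg2 491 and 343 CPM against 350 and 221 CPM (0.55, SE 0.224). These 5 all had an edgeR adjusted p of 1. In 5 of the 6 genes, Btg2 excepted, both aged libraries lay above both young ones, as in 17.1% of all genes.

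**Figure D5:**
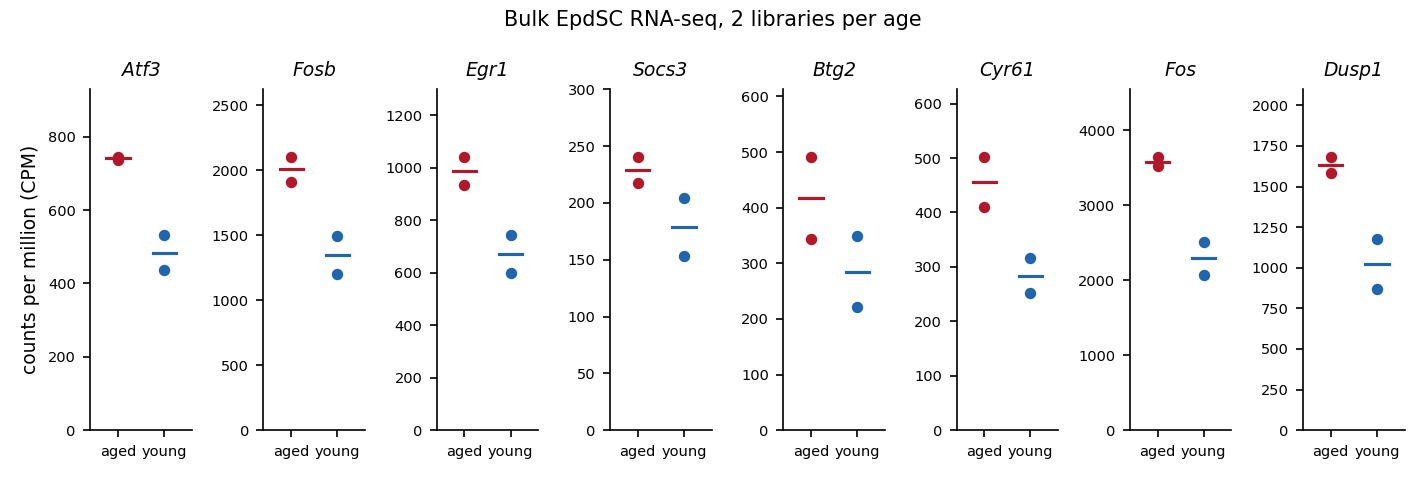
Levels (CPM, linear axes from 0) of the 6 rule genes, Fos and Dusp1 in bulk EpdSC RNA-seq, with a point per library and a line at the mean of 2 aged (left) and 2 young (right) libraries. Each gene's mean is higher in aged EpdSC, and the libraries of the ages overlap in Btg2.

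The wider lists showed the same side. Fos had 3638 and 3515 CPM in aged EpdSC, against 2513 and 2068 CPM in young EpdSC (0.64, SE 0.315), and Dusp1 1581 and 1681 CPM against 1179 and 872 CPM (0.67, SE 0.186, edgeR adjusted p = 0.609). On average 6 of 7 AP-1 subunits, 10 of 11 EGR, NR4A and KLF factors, 22 of 26 other immediate early genes and 17 of 22 feedback genes were higher. Their medians were 0.42, 0.56, 0.37 and 0.18, beside 0 for all genes. Of all these genes Arc, an immediate early gene known from neurons, was called in the filtered edgeR fit. It had 50.4 and 56.5 CPM in aged EpdSC, against 5.65 and 3.06 CPM in young EpdSC (3.61, SE 0.367, edgeR adjusted p = 0.0054), while no basal cell of either 10x library held a UMI of it. The age effect on the rule genes did not pass the test of a difference between EpdSC and HFSC (edgeR adjusted p of 0.838 for Cyr61 and 1.00 for the others). Marker sums moved with age in the same libraries. Suprabasal markers summed to 6537 and 6478 CPM in aged and 5536 and 4603 CPM in young EpdSC (12 of 13 higher on average), and fibroblast markers to 103 and 131 CPM and 60.8 and 69.7 CPM (6 of 8 higher), nearly all of it Sparc. Langerhans and myeloid markers summed to 16.5 and 18.4 CPM in aged and 30.9 and 31.4 CPM in young EpdSC (1 of 8 higher), with none at 0 in every library. The part of these cells in the values, and the cause of the opposite orders in bulk and 10x, was not tested.

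Summed ATAC-seq counts at the starts of 5 rule genes stood above those of most promoters in both ages. They were summed over the 500-base windows that touch each promoter and scaled to CPM by the total of all windows, from 1 library per age without a test, and log2 ratios were taken after adding 0.5 CPM. In EpdSC, Atf3 had 21.3 CPM in aged and 21.8 CPM in young cells (log2 -0.04), Socs3 21.5 and 21.4 CPM (0.01), and Btg2 13.6 and 12.2 CPM (0.16). Cyr61 had 18.0 and 14.9 CPM (0.27) and Fosb 11.4 and 8.49 CPM (0.41). The median over 18435 promoters with at least 20 counts in both libraries together was 0.09, with quartiles of -0.07 and 0.22. In EpdSC the promoters stood above 85.2% to 96.6% of all promoters in aged and above 80.1% to 98.0% in young cells, with Fosb lowest in both. Sums were not divided by the number of windows, so a promoter that crosses a window boundary covers more bases. Atf3, Fosb, Socs3 and Cyr61 crossed a boundary and Btg2 did not. The part of this in the percentiles was not tested.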

How the data were processed

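Per the labels' protocols, cells of trypsin-digested back skin were sorted and sequenced as 10x (3' chemistry, 2 libraries), RNA-seq (8) and ATAC-seq (4). The authors deposited whole-number counts that are not normalised: UMI counts for 737280 unfiltered barcodes per 10x library, read counts per gene, and counts in overlapping 500-base windows, of which only non-overlapping ones were used. The submitters' processing notes name STAR, Bowtie, Cell Ranger and mm10, without versions. Of strand settings, duplicate removal and a shift for transposase binding, the sources used here say nothing.

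UMIs were summed per class, scaled to CPM and compared at 2-fold, with at least 10 UMIs and 50 CPM in the higher class (for age, 20 UMIs over both). A class at 0 UMIs counted as 3. Intervals are 95%, exact. For RNA counts the test was edgeR's quasi-likelihood test (edgeR 4.0.16, R 4.3.3; TMM, filterByExpr, 1 fit of 8 libraries), with DESeq2 1.42.0 as an alternative. On simulated data the young 10x comparison recovered 200 of 200 genes changed 4-fold among 13901, and the bulk EpdSC test 198 of 200 among 19972, with 21 other genes called. In both, the changed genes were drawn from those above a minimum level, so recovery at low levels was not tested. The simulated 10x counts varied by counting error alone. Genes were named as rule genes, by the largest ratios in both libraries or with age, or from 31 lists by level; the young library alone, and every gene named from it, was added after its values and the number of aged cells were seen. The members and lists were chosen with earlier results of these data known. Alternatives were other cell thresholds, thinning, filters, scaling and left-out libraries.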

Additional observations from a re-analysis of the deposited data

How the results depend on the processing

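The number of IEG-high cells was 152, and 142 to 152 with 3 other filters; it was 54 with 5 or more rule genes, 284 with 3 or more, 98 with 2 Ly6a UMIs and 43 after thinning to 2000 UMIs. The thinned share was 0% of aged cells with 5 or more rule genes, with 2 Ly6a UMIs or at 1000 UMIs, 2.35% with 3 or more rule genes and 1.04% at 3000 UMIs. In young cells it was 1.02% and 11.2% with 5 or more and 3 or more rule genes, 0.982% and 8.86% at 1000 and 3000 UMIs, and 13.1% without thinning. The young share exceeded the aged one under each of these. Genes higher in both libraries numbered 11 with 3 or more rule genes, 2 with 2 Ly6a UMIs and 47 without a count minimum, and lower ones 1 with 2000 UMIs, 3 or more rule genes or centred medians, and 0 with at most 5% mitochondrial UMIs or 2 Ly6a UMIs. With age, 308 were higher with 3 or more rule genes and 1789 without a minimum, and 131 lower with 2 Ly6a UMIs. Centring turned the age split of 497 and 216 into 357 and 320. With 5 or more rule genes or thinning, 0 or 1 aged cells were left, so counts over both libraries and with age could not be given. In the young library alone, whose alternatives were chosen after seeing the data, like those on the age of all basal cells, 34 genes were higher with 5 or more rule genes, 37 after thinning and 715 without a minimum. Lower ones numbered 35, 207 and 711 there, 1 with 3 or more rule genes and 12 with 2 Ly6a UMIs. H2-M2 turned to -0.46 with 5 or more rule genes and -0.19 after thinning, and Stfa3 to -0.066 after thinning. In bulk, 18 called genes became 11 with total counts only, 239 without a filter, 10 with a 1 CPM filter, 3 with the 4 EpdSC libraries alone and 86 with DESeq2, and 6 to 31 when 1 library was left out, the lowest without replicate 2 of aged EpdSC and the highest without replicate 2 of young HFSC. Without a filter Cyr61, Fos, Ier2, Dusp1 and Nr4a1 were called as higher in aged EpdSC (Cyr61 0.67, adjusted p = 0.0161, over a range of 0.0161 to 1). The 6 rule genes were higher in aged EpdSC in all 15 fits. Klf6 lay between -0.070 and 0.15 when 1 library was left out, with -0.070 without replicate 1 of aged EpdSC. With the replicate number as a block 23 genes were called. Deviations of same-numbered libraries from their group means correlated at 0.175. With 2 libraries per group both pairs give this same value by construction, so it cannot show that the numbers pair the samples. The causes of these shifts were not tested. With 24244 UMIs in the aged cells, the 95% Poisson interval of a gene at 0 UMIs reaches 152 CPM.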

Other observations

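Some genes outside the rule also differed between the ages in all basal cells. They are named here after their values were seen, and without a test. The clock output genes Dbp and Tef had 26.8 and 22.2 CPM in aged basal cells, against 135 and 59.0 CPM in young basal cells, and Nr1d1, a repressor of the clock, 36.1 against 62.9 CPM. Tsc22d3, a leucine zipper protein, had 192 CPM in aged and 61.9 CPM in young basal cells, the kinase Sgk1 153 and 42.4 CPM, and Glul, the glutamine synthetase, 253 and 68.4 CPM. Within the young library Dbp had 139 CPM in IEG-high and 134 CPM in other basal cells, Tsc22d3 57.1 and 62.7 CPM, Sgk1 32.9 and 44.1 CPM, and Glul 75.7 and 67.1 CPM.

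In bulk EpdSC replicates of 1 age differed widely in the same genes. Dbp had 26.8 and 93.6 CPM in the aged libraries, against 17.5 and 53.2 CPM in the young ones. Tsc22d3 had 94.4 and 101 CPM in aged and 80.2 and 381 CPM in young EpdSC, and Glul 249 and 425 CPM in aged and 151 and 487 CPM in young EpdSC. None of these 3 was called (edgeR adjusted p of 1). The stress keratin Krt6a had 64.2 CPM in aged basal cells, against 1.53 CPM in young ones, but its level in barcodes of 10 to 100 UMIs was 69.4 CPM in the aged library and 22.2 CPM in the young one, at or above that of the cells.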
